A study of Mus musculus with 31 samples.

Results

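Oocytes of primary follicles were set against oocytes of primordial follicles in mice by reduced representation bisulfite sequencing, an assay that reads CpG methylation next to the CCGG sites cut by the enzyme MspI. The primary group holds the 6 libraries whose titles carry Type3a (replicates 1, 2 and 4) and Type3b (replicates 1 to 3). The primordial group holds the 6 libraries titled Type1 and Type2, with 3 replicates each, so 12 of the 31 libraries of the series entered the comparison. The groups were taken from the titles and the tissue label, and not from any measured value. All libraries came from B6D2F1 mice, a cross of C57BL/6 and DBA/2, with no treatment. The labels give no age, no number of oocytes per library and no statement that replicates came from separate animals, so a p-value here sets a difference only against the spread among these libraries, part of which may be technical. The label for developmental stage names embryo stages, against the titles, and was left aside. The 19 libraries of 5 later stages, from secondary (Type4, Type5a, Type5b) and antral follicles (Type6, Type7), served only to describe where a tile stands later.

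A primordial follicle is a resting oocyte with a flat layer of granulosa cells, and a primary follicle is the first step of growth, when these cells turn cuboidal and the oocyte starts to enlarge. Mouse oocytes carry little DNA methylation while they rest and gain it during growth through the methyltransferase DNMT3A and its cofactor DNMT3L, mostly across transcribed regions. The gain includes the maternal imprints, promoters that are methylated in the egg and not in sperm and that keep this mark on the maternal copy after fertilisation. CpG islands at the starts of most other genes stay free of it.

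Promoter sequences of 5 genes are shown because the values below turn on them. Zrsr1 and Mcts2 are maternal imprints, Asz1 and Slc25a31 are germline genes, and the placed start of Dnmt1 gains methylation only late in these data. The genes to show were chosen after their values were seen. Each runs 5′ to 3′ in the direction of the gene, 250 bases before and 50 after a RefSeq start. Where a gene had several placed starts, the 1 with the most matched sites was used. That start need not be the main promoter of the gene, so the values of Dnmt1 and the others hold for the placed start only. Capitals mark CpG sites that had at least 5 reads in at least 1 primary and 1 primordial library. The letters are those of RefSeq on GRCm38.p6. Each was put on the mm9 coordinates of the deposited sites by matching the pattern of its CpG positions, at a single place and with no conversion between builds. On mm9, Zrsr1 lies at chr11:22871755-22872054 (plus strand), Mcts2 at chr2:152512634-152512933 (plus), Asz1 at chr6:18059012-18059311 (minus), Slc25a31 at chr3:40512543-40512842 (plus) and Dnmt1 at chr9:20757018-20757317 (minus).
Zrsr1: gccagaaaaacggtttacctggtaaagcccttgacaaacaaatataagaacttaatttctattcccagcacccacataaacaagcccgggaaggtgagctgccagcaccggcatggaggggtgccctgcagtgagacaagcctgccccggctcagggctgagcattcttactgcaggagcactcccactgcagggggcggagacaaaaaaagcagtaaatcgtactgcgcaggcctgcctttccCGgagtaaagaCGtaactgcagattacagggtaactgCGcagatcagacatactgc
Mcts2: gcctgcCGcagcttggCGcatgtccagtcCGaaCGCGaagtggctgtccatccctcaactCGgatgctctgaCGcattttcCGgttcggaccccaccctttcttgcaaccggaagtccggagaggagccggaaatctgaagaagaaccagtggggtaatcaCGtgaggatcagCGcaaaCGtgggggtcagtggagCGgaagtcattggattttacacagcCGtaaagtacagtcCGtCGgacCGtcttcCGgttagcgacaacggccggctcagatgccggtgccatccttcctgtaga
Asz1: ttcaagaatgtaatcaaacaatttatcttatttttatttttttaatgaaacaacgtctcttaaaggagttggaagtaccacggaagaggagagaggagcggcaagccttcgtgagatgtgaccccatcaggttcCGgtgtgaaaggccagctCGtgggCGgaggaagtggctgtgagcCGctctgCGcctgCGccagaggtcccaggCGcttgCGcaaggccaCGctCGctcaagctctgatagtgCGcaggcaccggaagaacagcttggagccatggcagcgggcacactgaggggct
Slc25a31: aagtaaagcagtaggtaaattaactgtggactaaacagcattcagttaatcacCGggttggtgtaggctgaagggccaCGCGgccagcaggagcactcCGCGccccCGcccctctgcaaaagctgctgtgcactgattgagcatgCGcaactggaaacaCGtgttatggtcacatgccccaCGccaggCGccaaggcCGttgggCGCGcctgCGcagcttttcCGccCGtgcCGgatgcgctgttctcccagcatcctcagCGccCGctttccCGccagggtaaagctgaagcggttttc
Dnmt1: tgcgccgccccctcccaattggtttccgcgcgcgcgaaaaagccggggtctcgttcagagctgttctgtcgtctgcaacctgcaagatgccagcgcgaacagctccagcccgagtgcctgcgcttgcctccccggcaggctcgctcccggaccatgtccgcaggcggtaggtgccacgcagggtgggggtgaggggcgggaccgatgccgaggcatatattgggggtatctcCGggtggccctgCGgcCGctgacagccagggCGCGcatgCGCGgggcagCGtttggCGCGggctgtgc

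Reads over listed sites ran from 16652864 to 46285175 in the primary libraries and from 38445853 to 51294814 in the primordial libraries. The median was 10 to 22 reads per site in primary and 22 to 26 in primordial libraries, and Type3b replicates 2 and 3 were the shallowest, at 11 and 10. Reads of sites covered 5 times or more were added up over 100-bp tiles holding 3 or more of them, and the level of a tile is the percentage of its reads that were methylated. Of 163350 tiles measured anywhere in the series, 55120 were measured in at least 4 libraries of each group and were tested, and 21227 were measured in all 12. As a check of the labels, 2 imprinted starts were read in the 6 primordial libraries, since somatic cells carry imprints on the maternal copy. Those of Zrsr1 and Mcts2 lay between 0 and 5.36% over 300 bases. The check was mixed in Type2 replicate 3. There the shared start of Snrpn and Snurf had 63.5% over 2 kb, against at most 7.13% in the other primordial libraries measured. The start of Commd1, close to Zrsr1, had 18.8% over 300 bases there, against at most 8.08% in the other primordial libraries. Levels at CpG-dense X tiles minus levels at CpG-dense autosomal tiles, a second mark of female somatic DNA, are given beside the results. Type3a replicate 1 and Type1 replicate 3 had the highest mean level of their groups and were set apart in earlier results of these data by an X measure over more tiles, so values are also given without both.

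Primary oocytes had a higher mean methylation level than primordial oocytes, by an amount that did not exceed the spread between libraries. Over the 21227 tiles measured in all 12 libraries, the mean tile level was 24, 14.2 and 14.6% in Type3a replicates 1, 2 and 4 and 16.9, 19.2 and 20.4% in Type3b replicates 1 to 3. It was 14.8, 13.3 and 19.4% in Type1 and 13.4, 13.4 and 15.1% in Type2. Type3a replicates 2 and 4 and Type3b replicates 1 and 2 thus lay within the primordial range, and Type1 replicates 1 and 3 and Type2 replicate 3 within the primary range, so the groups overlapped. The mean was 18.2% ± 3.74 in primary and 14.9% ± 2.36 in primordial libraries (SD, n = 6 each). The difference of 3.34 percentage points had a two-sided exact permutation p of 0.0887, and 6 against 6 libraries can reach 0.00216. Single libraries decided on which side of 0.05 the test fell: the difference was 4.25 points without Type1 replicate 3 (exact permutation p = 0.0325), 4.14 without Type3a replicate 2 (exact permutation p = 0.0476) and 4.27 without Type3a replicate 4 (exact permutation p = 0.0476). It was 2.19 points without Type3a replicate 1 (exact permutation p = 0.180), the lowest of these values. Without both Type3a replicate 1 and Type1 replicate 3 it was 3.09 points (exact permutation p = 0.0476).

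**Figure D1:**
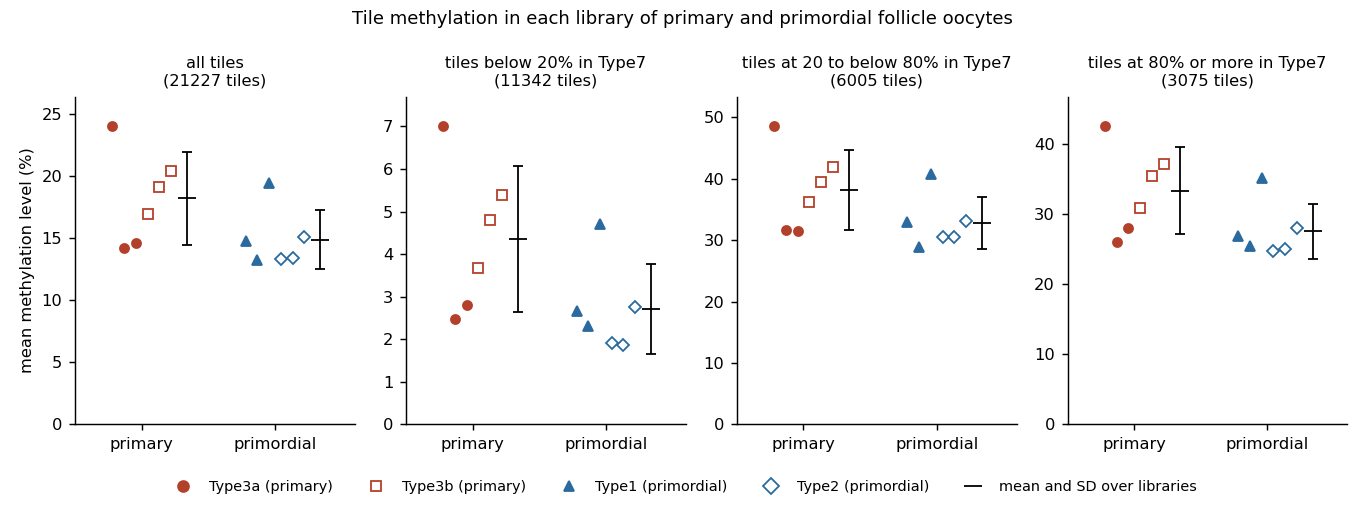
Mean methylation level (%) of each library over all tiles measured in all 12 libraries and over the tiles of 3 Type7 classes; points are libraries, and the black mark and bar give the mean and SD of each group of 6. In every panel Type3a replicate 1 is the highest point, and Type1 replicate 3 stands above the other primordial libraries.

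The 2 stages of primary follicles differed in spread more than in mean. Type3b averaged 18.8% ± 1.78 and Type3a 17.6% ± 5.54 (SD, n = 3 each). Type1 and Type2 averaged 15.8% ± 3.21 and 13.9% ± 0.989. Type3b alone lay 3.95 points above the 6 primordial libraries (exact permutation p = 0.0476), and Type3a alone 2.74 points above them (exact permutation p = 0.310). Neither passed adjustment over the 24 comparisons of stages and measures made (adjusted exact permutation p = 0.229 and 0.643). Type3b lay 1.21 points above Type3a (exact permutation p = 0.8, where 3 against 3 can reach 0.1). Tile by tile, a quasi-binomial model of the reads called (adjusted p under 0.05 and at least 20 points) 59 of 62117 tiles higher (0.095%) and 1 lower (0.00161%) in Type3b than in Type2, and 1 of 59607 higher (0.00168%) in Type3a than in Type2. It called 0 tiles in Type3b or Type3a against Type1. In single tiles, the mean absolute difference between pairs of libraries was 7.95 points within the primary group, 5.51 points within the primordial group and 7.06 points between the groups, over 14470 tiles with at least 50 reads in every library. Pairs of Type3a libraries differed by 4.57 to 11.2 points and pairs of Type2 libraries by 3.30 to 4.09 points. On average, primary libraries thus differed from each other by no less than from primordial ones, and primordial libraries from each other by less; the pairs share libraries and were not tested.

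No single tile was called between primary and primordial oocytes in the main model. A tile was called at a Benjamini-Hochberg adjusted p under 0.05 in a quasi-binomial model of its reads together with a difference of at least 20 points. The model called 0 of 55120 tiles (0%), and the lowest adjusted p of this model was 0.0924. At an unadjusted p under 0.05 it had 6252 tiles higher in primary oocytes (11.3%) and 1006 lower (1.83%). Both limma on tile levels and edgeR's quasi-likelihood test also called 0 tiles. Other fits of the quasi-binomial model did call tiles. With replicate number as a block it called 23 of 55120 (23 higher, 0 lower). Among the 12 libraries only Type3a replicate 4 carries the number 4, so it adds nothing to the contrast of the groups in that fit. With the dispersion taken from all 31 libraries the model called 73 of 55120 (70 higher, 3 lower). At an unadjusted p under 0.05, limma had 2729 tiles higher (4.95%) and 221 lower (0.401%), and edgeR 2435 higher (4.42%) and 318 lower (0.577%). The 3 tools thus differed in how many tiles had a low p, and in each of them more of these tiles were higher in primary oocytes than lower. Tiles share libraries, so a library with a high mean raises many tiles at once.

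**Figure D2:**
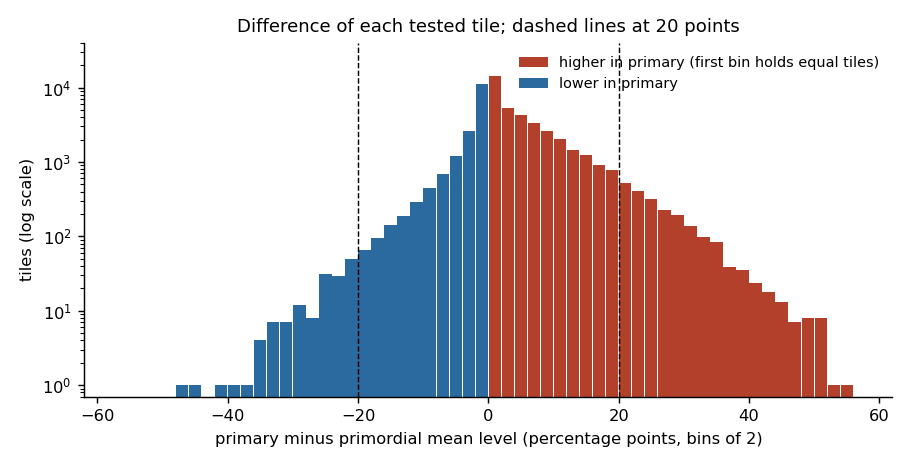
Number of tiles (log scale) by the difference between the mean levels of the 6 primary and the 6 primordial libraries, in bins of 2 percentage points; dashed lines stand at 20 points either way. Of 55120 tiles, 2141 lie at or beyond the upper line and 153 at or beyond the lower one.

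The distribution of tile differences leaned towards higher levels in primary oocytes. The median difference was 1.11 points, with quartiles at -0.285 and 6.33 points. The primary mean was the higher one in 36324 tiles (65.9%) and the lower one in 16869 (30.6%). A difference of at least 20 points was present in 2141 tiles that were higher in primary oocytes (3.88%) and in 153 that were lower (0.278%). Among tiles measured in all 12 libraries, the primary and primordial libraries did not overlap in 33 tiles higher in primary oocytes (0.155%) and in 3 lower ones (0.0141%). All autosomes shared the shift: the mean difference ran from 2.64 points on chromosome 9 to 3.99 points on chromosome 10, and it was 4.27 points on X. On chromosome 10 the level was 22.5% ± 4.56 in primary and 18.5% ± 2.74 in primordial libraries, and on chromosome 9 it was 12.4% ± 2.83 and 9.73% ± 1.64 (SD, n = 6 each). These are values of the same 12 libraries, and chromosomes are not replicates.

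Tiles that are methylated in the grown oocyte had the larger difference in points. Tiles were put in classes by their mean level in the 3 Type7 libraries, the last antral stage, which is not part of the comparison. In 3075 tiles at 80% or more in Type7, the level was 33.3% ± 6.18 in primary and 27.5% ± 3.89 in primordial libraries, a difference of 5.80 points (exact permutation p = 0.0758, adjusted 0.107). In 6005 tiles between 20 and 80% in Type7, it was 38.2% ± 6.55 in primary and 32.8% ± 4.24 in primordial libraries, 5.40 points apart (exact permutation p = 0.128, adjusted 0.128). In 11342 tiles below 20% in Type7, it was 4.36% ± 1.71 in primary and 2.71% ± 1.05 in primordial libraries, 1.65 points apart (exact permutation p = 0.0693, adjusted 0.107). The difference was thus present in tiles that end up unmethylated as well as in those that end up methylated. The contrast between the highest and the lowest class was 29.0 points ± 4.47 in primary and 24.8 points ± 2.86 in primordial libraries, 4.16 points apart (exact permutation p = 0.0801, adjusted 0.107). None of the 4 passed at 6 against 6; without Type1 replicate 3 all of them did, at 7.31, 7.00, 2.05 and 5.26 points in the order given here (adjusted exact permutation p = 0.0433, 0.0476, 0.0433 and 0.0433). Without Type3a replicate 1 they were 4.00, 3.34, 1.12 and 2.88 points in that order (adjusted exact permutation p = 0.219, 0.238, 0.219 and 0.219). With at least 5 sites per tile the class below 20% differed by 0.784 points.

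Among the tiles at 80% or more in Type7, a difference was measured whether or not methylation had arrived by Type5b, and the classes were not tested against each other. Those already at 80% in Type5b, the last secondary stage, had 35.6% ± 6.69 in primary and 29.5% ± 4.08 in primordial libraries (1232 tiles, 6.14 points, exact permutation p = 0.0736). Those between 20 and 80% in Type5b had 34.6% ± 6.02 in primary and 28.8% ± 3.92 in primordial libraries (1615 tiles, 5.78 points, exact permutation p = 0.0758). Those still below 20% in Type5b had 7.33% ± 3.82 in primary and 3.89% ± 2.58 in primordial libraries (134 tiles, 3.45 points, exact permutation p = 0.0887). The adjusted p was 0.0887 for all 3 classes.

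CpG-poor tiles differed by more points than CpG-dense tiles. Density was counted as listed CpG sites within 1 kb around the tile. In 3144 tiles with 0 to 9 sites, the level was 28.9, 12.1 and 13.9% in Type3a and 17.2, 22.7 and 24.2% in Type3b, against 12.9, 11.8 and 21.3% in Type1 and 11, 11 and 14.7% in Type2. All 3 Type3b libraries were above every primordial library but Type1 replicate 3. The group means were 19.8% ± 6.53 in primary and 13.8% ± 3.93 in primordial libraries, 6.06 points apart (exact permutation p = 0.0779, adjusted 0.117). The difference was 4.44 points at 10 to 19 sites, 2.99 points at 20 to 39 sites and 1.92 points at 40 to 59 sites (adjusted exact permutation p = 0.117 each). In 1735 tiles with 60 sites or more, the level was 7.38% ± 0.915 in primary and 6.62% ± 0.830 in primordial libraries, 0.762 points apart (exact permutation p = 0.167, adjusted 0.167). The CpG-poor level minus the CpG-dense level was 12.4 points ± 5.73 in primary and 7.15 points ± 3.20 in primordial libraries. That difference of 5.29 points did not pass (exact permutation p = 0.0823, adjusted 0.117), and it was 6.49 points without Type1 replicate 3 (adjusted exact permutation p = 0.0476). Without Type3a replicate 1 it was 3.83 points, and the 5 classes from poor to dense differed by 4.24, 2.92, 1.87, 1.19 and 0.411 points (lowest adjusted exact permutation p 0.249).

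**Figure D3:**
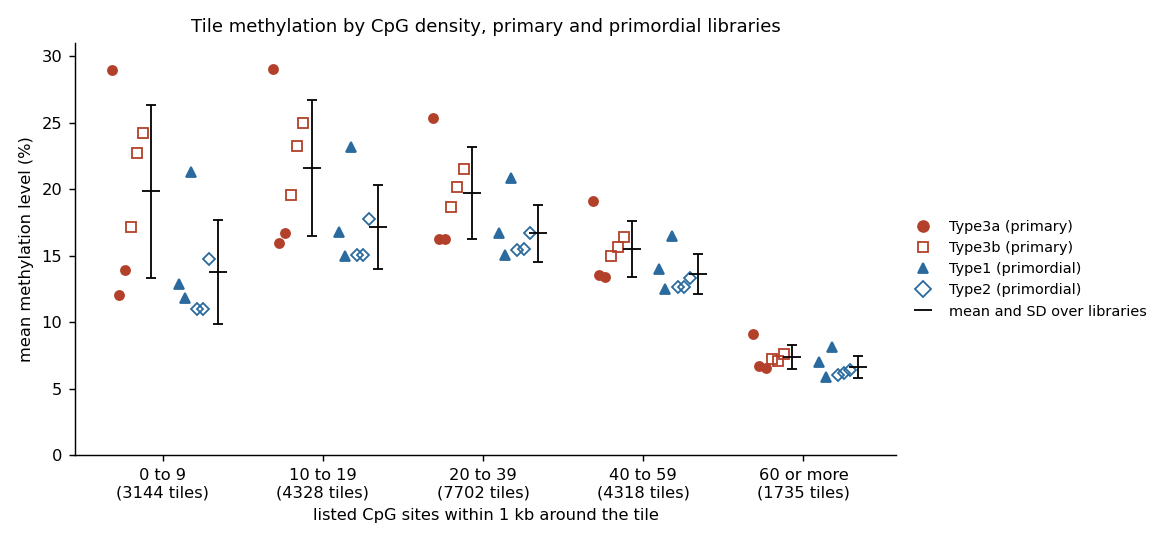
Mean methylation level (%) of each library by the number of listed CpG sites within 1 kb around the tile; points are libraries, and the black mark and bar give the mean and SD of each group. At 0 to 9 sites the primary libraries run from 12.1 to 28.9%, and at 60 sites or more from 6.59 to 9.09%.

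The share of tiles at a high level was on average higher in primary libraries, but it did not follow the mean level in every library. Type1 replicate 3 had a mean level of 19.4% and Type3b replicate 2 of 19.2%, while their shares at 80% or more were 1.33 and 2.57%. Tiles at 80% or more made up 4.69, 0.730 and 1.32% of tiles in Type3a and 1.16, 2.57 and 2.42% in Type3b, against 0.999, 1.16 and 1.33% in Type1 and 0.641, 0.735 and 0.952% in Type2. Type3a replicate 1 and Type3b replicates 2 and 3 were above all 6 primordial libraries, and the other 3 primary libraries were within the primordial range. The mean share was 2.15% ± 1.44 in primary and 0.970% ± 0.258 in primordial libraries (exact permutation p = 0.0628, adjusted 0.104). Tiles below 10% made up 59.1% ± 5.03 in primary and 64.1% ± 4.57 in primordial libraries, a difference of -4.96 points (exact permutation p = 0.104, adjusted 0.104). Without Type3a replicate 2 the share at 80% or more was 1.46 points higher in primary libraries (adjusted exact permutation p = 0.0173), but without Type3a replicate 1 it was 0.667 points higher (adjusted exact permutation p = 0.173). Without Type1 replicate 3 the share below 10% differed by -6.71 points (adjusted exact permutation p = 0.0476).

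The level was higher in primary oocytes at single CpG sites of every 4-letter context. Over 142126 sites with at least 5 reads in all 12 libraries, the mean was 16.2% ± 3.53 in primary and 13% ± 2.19 in primordial libraries (3.23 points, exact permutation p = 0.0823). At the 14090 sites within CCGG, where MspI cuts, it was 27.5% ± 5.13 in primary and 22.7% ± 3.15 in primordial libraries. At the other 128036 sites it was 14.9% ± 3.36 in primary and 11.9% ± 2.08 in primordial libraries. Read on both strands together, ACGT sites had 6.53% ± 3.61 in primary and 2.76% ± 2.33 in primordial libraries, and GCGC sites 14.6% ± 3.25 in primary and 11.8% ± 2.09 in primordial libraries. Over the 9 contexts other than CCGG the difference ran from 2.58 points (ACGC or GCGT) to 4.43 points (ACGG or CCGT), and none passed (lowest adjusted exact permutation p 0.101).

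The X measure was also higher in primary libraries. Over 32 CpG-dense X tiles, the level minus that of CpG-dense autosomal tiles was 1.12, -1.70 and -0.778 points in Type3a and -1.47, -0.263 and 1.04 points in Type3b, against -1.62, -1.28 and -0.0464 points in Type1 and -1.70, -3.44 and -2.43 points in Type2. Only Type3a replicate 1 and Type3b replicate 3, the libraries with the first and second highest mean level, were above 0. The means were -0.342 ± 1.21 in primary and -1.75 ± 1.14 in primordial libraries, 1.41 points apart (exact permutation p = 0.0736). That difference was 1.75 points without Type1 replicate 3 (exact permutation p = 0.0281) and 1.69 points without Type3a replicate 2 (exact permutation p = 0.0411). It was 1.07 points without Type2 replicate 2 (exact permutation p = 0.141), 1.39 without Type1 replicate 1 (exact permutation p = 0.232) and 0.865 points with 200-bp tiles (exact permutation p = 0.340). It was 1.41 points without both Type3a replicate 1 and Type1 replicate 3 (exact permutation p = 0.0476). The part of DNA from other cells in the results here was not tested.

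Tiles at least 20 points higher in primary oocytes were followed into the later stages. They were chosen on the primary and primordial values, so those values are a description. The 2141 tiles stood at 17.7% ± 7.72 in the Type1 and 16.3% ± 1.55 in the Type2 libraries. Type3a had 37.8% ± 21.7 and Type3b 48.4% ± 11.5 over them. They then had 40.3% ± 13.6 in Type4, 33.5% ± 8.92 in Type5a and 46.5% ± 2.01 in Type5b, and 62.1% ± 3.17 in Type6 and 56.0% ± 1.40 in Type7 (SD, n = 3, or 5 in Type4 and Type5a). Since the choice used the primary values, the order of primary and later levels is a description too. Over all 55120 tested tiles the mean was 19.8% in Type3b, 23.6% in Type4 and 21.2% in Type5a. Of 1838 of these tiles with a Type7 level, 34.5% were at 80% or more, 40.4% between 20 and 80% and 25% below 20%. Among 48946 tested tiles with a Type7 level, the shares were 17.4, 28.1 and 54.5%. The 153 tiles at least 20 points lower in primary oocytes stood at 27.1% ± 6.09 in the Type3a and 26.3% ± 2.85 in the Type3b libraries, against 57.1% ± 7.73 in the Type1 and 46.3% ± 1.99 in the Type2 libraries. They had 51.1% ± 9.16 in Type4 and 60.5% ± 2.19 in Type7, which is a description for the same reason.

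**Figure D4:**
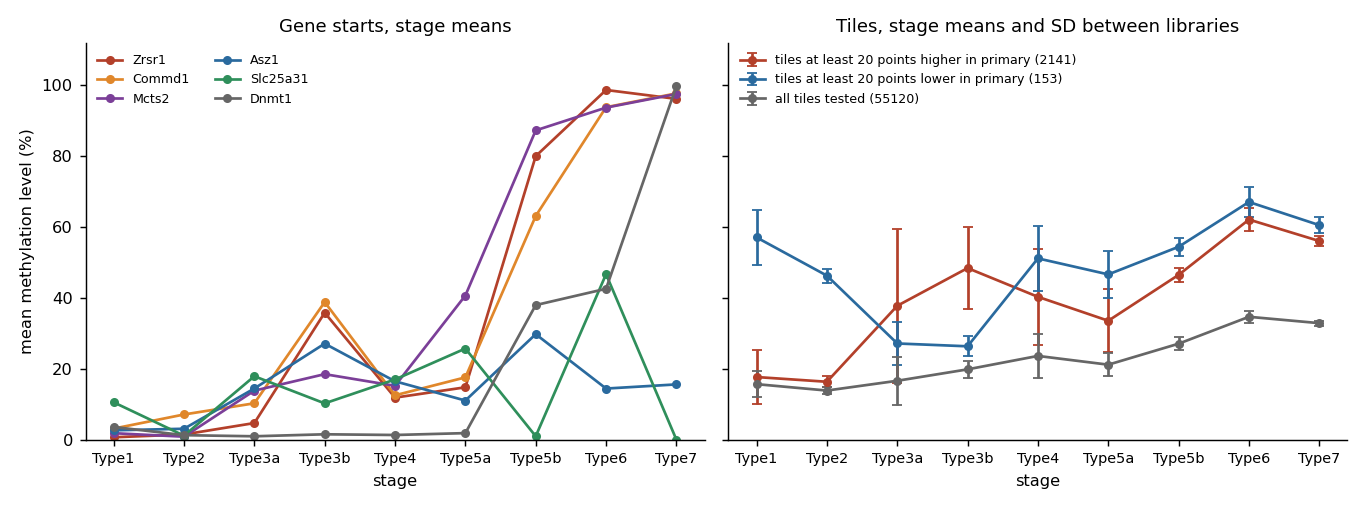
Mean level (%) by stage, for 6 gene starts (left, stage means) and for tiles at least 20 points higher or lower in primary than in primordial oocytes and all tested tiles (right, mean and SD between libraries). Zrsr1, Commd1, Mcts2 and Dnmt1 end above 95% in Type7, whereas Slc25a31 ends at 0% and Asz1 at 15.6%.

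With no tile called in the main model, the tiles named here were chosen after their values were seen. In 5 tiles, 0.0236% of those measured in all 12 libraries, the groups did not overlap and differed by at least 20 points, each higher in primary oocytes. The tile at chr10:90464301-90464400 lies 81138 bp downstream of the start of Apaf1, which encodes the scaffold of the apoptosome, within the length of that gene in RefSeq. It had 57.1, 12.1 and 8% in Type3a and 13.7, 31.6 and 88.5% in Type3b, against 0% in all primordial libraries but Type2 replicate 3, at 3.85%. Later it was at 2.36% in Type4 and 30.4% in Type5a, then at 50.0% in Type5b, and at 91.8% and 100% in the antral stages Type6 and Type7. The unadjusted p was 0.00111 and the adjusted p 0.160 in the quasi-binomial model. The tile at chr16:68548201-68548300 averaged 36.7% ± 32.2 in primary and 2.25% ± 1.71 in primordial libraries, and it was back at 2.9% in Type7. The tiles at chr4:66298801-66298900, chr11:75079001-75079100 and chr15:27208501-27208600 averaged 28.3, 23.8 and 42.8% in primary and 4.04, 0 and 19.8% in primordial libraries. In Type7 they stood at 44.9, 28.9 and 93.8%. The 5 tiles thus shared the difference between the groups and not a level in the grown oocyte.

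Among tiles measured in all 12 libraries and at least 10 points higher, the lowest p belonged to chr19:57536601-57536700. That tile had 20.7% ± 13.4 in primary and 0.815% ± 1.59 in primordial libraries (adjusted p = 0.105, quasi-binomial model). A tile at chr15:79139101-79139200 was at 0% in all 6 primordial libraries and between 1.15 and 26.1% in the 6 primary ones. It stood at 42.1% in Type5b and 95.3% in Type7, with an adjusted p of 0.113 for the primary against the primordial group in the quasi-binomial model. A tile within the length of Cenpm, a centromere protein gene, at chr15:82065401-82065500, had 11.5% ± 8.98 in primary and 0.562% ± 0.946 in primordial libraries and 99.0% in Type7. In the other direction, adjacent tiles at chr17:39983201-39983300 and chr17:39983301-39983400 had 12.8% ± 11.3 and 12.3% ± 5.17 in primary, against 33.1% ± 13.1 and 22.7% ± 7.71 in primordial libraries. Neither passed the adjustment (adjusted p = 0.113 and 0.124, quasi-binomial model). The groups overlapped at both tiles. At the first, Type1 replicate 2 was at 7.69% and Type3a replicate 1 at 32.2%. At the second, Type2 replicate 3 was at 17.1% and Type3b replicate 2 at 17.4%. Both tiles were CpG-dense, with 83 and 76 listed sites within 1 kb. They stood at 16.2 and 15.4% in Type7.

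Gene starts stayed at low levels in both groups. Of 32851 RefSeq promoter sequences, 7181 were placed on the deposited coordinates by their CpG pattern, for 6497 genes, and only 2 of 7162 neighbouring placed promoters came in another order than in RefSeq. Of these starts, 3419 had enough sites for a test over their 300 bases. The model called 0 of them (0%), and at an unadjusted p under 0.05 it had 314 higher in primary oocytes (9.18%) and 104 lower (3.04%). The median level was 0.940% in primary and 0.842% in primordial oocytes, and the median difference 0.0662 points, with the higher mean in primary oocytes at 1797 starts (52.6%). Differences of at least 10 points were present at 11 starts higher in primary oocytes (0.322%) and 5 lower (0.146%). In 1589 starts measured in all 12 libraries, the mean level was 1.39% ± 0.125 in primary and 1.22% ± 0.315 in primordial libraries (exact permutation p = 0.238, adjusted 0.476). Between 1 and 13 of these starts were at 20% or more in a primary library, and between 2 and 11 in a primordial library. In all, 42 starts reached 20% in any library, 29 of them in 1 library only, with 17 seen in primary libraries alone, 18 in primordial libraries alone and 7 in both. On X, 68 starts had a median difference of 1.23 points, with medians of 3.24% in primary and 2.08% in primordial oocytes; the 3351 autosomal starts had a median difference of 0.0574 points.

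Of the maternal imprint promoters, Zrsr1 and Mcts2 were higher in primary oocytes at an unadjusted p under 0.05, and neither passed the adjustment. The list names 22 genes, of which 7 were placed and 4 had values; 2 of the 4 were higher at that p and 0 lower, beside 9.18 and 3.04% of all starts. The other 3 lists named here, like this one, were drawn up with earlier results of these data known. Zrsr1, an intronless gene inside Commd1 that is expressed from the paternal copy, had 0, 1.83 and 12.2% in Type3a and 1.72, 56.2 and 49.6% in Type3b. In primordial libraries it had 0, 2.04 and 0% in Type1 and 0, 0.877 and 3.54% in Type2. Type3b replicates 2 and 3 and Type3a replicate 4 were above all primordial libraries, and the other 3 primary libraries were within their range. The means were 20.3% ± 25.7 in primary and 1.08% ± 1.45 in primordial libraries (19.2 points, p = 0.0138, adjusted 0.285, quasi-binomial model). The 56.2% of Type3b replicate 2 rests on 153 reads summed over 3 sites (95% Wilson interval 48.3 to 63.8%). The 0% of Type3a replicate 1 rests on 280 reads so summed, which allows up to 1.07%. A read that covers several sites counts once at each, so such counts can exceed the number of separate reads. The intervals and limits given for gene starts take the counts as independent and are then too narrow. They cover counting error only, since the reads carry no molecular identifiers. Zrsr1 was at 11.9% in Type4, 14.8% in Type5a, 79.99% in Type5b and 96.1% in Type7.

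The start of Commd1, the host gene of Zrsr1, lies close by on the other strand, at chr11:22872817-22873116, and is named because of its values. It had 22.7, 0.175 and 7.96% in Type3a and 51.5, 4.56 and 60.4% in Type3b, against 1.01, 8.08 and 0.286% in Type1 and 2.25, 0.242 and 18.8% in Type2. The library order was not that of Zrsr1: Type3b replicate 1 was high at Commd1 and low at Zrsr1, and Type3b replicate 2 the reverse. The means were 24.5% ± 25.6 in primary and 5.12% ± 7.34 in primordial libraries (p = 0.0184, adjusted 0.313, quasi-binomial model). Mcts2, an intronless copy of a translation factor gene inside H13, had 32.4, 0 and 9.06% in Type3a and 24.9, 17.7 and 12.9% in Type3b. In primordial libraries it had 0.143, 0 and 5.36% in Type1 and 0, 0 and 2.54% in Type2. All primary libraries but Type3a replicate 2 were above all primordial libraries. The means were 16.2% ± 11.5 in primary and 1.34% ± 2.21 in primordial libraries (14.8 points, p = 0.000380, adjusted 0.121, quasi-binomial model). The value of Type3a replicate 2 rests on 443 reads summed over sites, which allows up to 0.677%. That of Type3a replicate 1 rests on 1409 reads so summed (95% Wilson interval 30.04 to 34.9%). Both ranges take linked sites as independent and are too narrow where reads cover several sites.

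**Figure D5:**
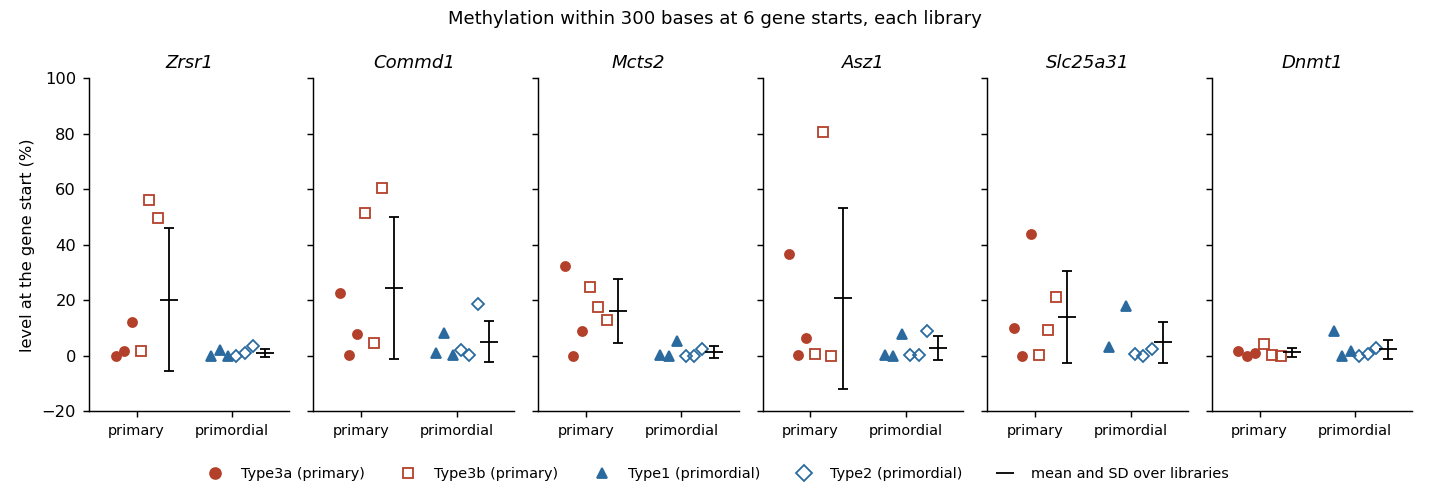
Methylation level (%) over the 300 bases at 6 gene starts in each library; points are libraries, and the black mark and bar give the mean and SD, so that bars may reach below 0%. At Mcts2, 5 of 6 primary libraries lie above all primordial libraries, whereas at Dnmt1 no library exceeds 9.01%.

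In the sequences shown above, primary libraries were higher at 3 of 3 capitalised sites of Zrsr1 and at 17 of 17 of Mcts2. At Mcts2 the sites fell into stretches: the 7 sites at positions -244 to -178, counted from the start, averaged 4.75 to 5.25% in the 5 primary libraries that covered them and 0% in primordial libraries. That value came from 1 primary library, at 23.8 to 26.3%, with the other 4 at 0%. The 8 sites at -89 to -7 averaged 40.1 to 42.2% in primary and 0.490 to 6.08% in primordial libraries. That value rested mainly on 2 primary libraries. The tile at chr2:152512801-152512900, which holds most of these sites, was at 90.7, 0 and 21.9% in Type3a and 29.5, 17.9 and 90.1% in Type3b. Over all 300 bases Type3b replicate 3 was at 12.9%. At Asz1 all 11 sites were higher in primary libraries, and at Slc25a31 19 of 20. At Dnmt1 0 of 10 sites were higher in primary libraries. Sites on 1 MspI fragment are read together, so neighbouring sites share their reads and are not independent values. The other measured starts of the imprint list, Grb10 and Zdbf2, were low throughout. As placed they were at 0.0741 and 0.939% in Type7, so they are not starts methylated in the grown oocyte. Grb10 had 1.07% ± 2.45 in primary and 1.64% ± 2.38 in primordial libraries, and Zdbf2 had 0.767% ± 1.02 (n = 5) in primary and 0.726% ± 0.802 (n = 6) in primordial libraries. Over all 4 measured starts of the list, the library mean ran from 0.501 to 20.8% in primary and from 0.460 to 1.69% in primordial libraries. Over the 2 at 80% or more in Type7, it ran from 0.915 to 36.9% in primary and from 0 to 3.04% in primordial libraries.

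A wider window of 2 kb, with 5 matched sites as the minimum, was added after seeing the data and gave values for 8 members of the imprint list, of which 3 were higher at an unadjusted p under 0.05 and 0 lower. Only 4 of these 8 were at 80% or more in Type7. Snrpn and Snurf are 1 start with the same values, and both are counted in the 8, in these 4 and in the medians below, so the number of separate starts is smaller. Of all 6459 starts in this window, 7.99% were higher and 2.29% lower at that p, 55.8% had the higher mean in primary oocytes, and 0% were called. The median difference of the 8 members was 3.58 points, but without Type3a replicate 1 and Type1 replicate 3 it was -0.158 points over the 7 that could still be measured, with 2 higher and 0 lower. Igf2r, the receptor for IGF2 whose imprint lies inside the gene and not at its start, had 2.21% ± 1.97 (n = 4) in primary and 0.0178% ± 0.0435 (n = 6) in primordial libraries. Snrpn and Snurf, which share a start, had 84.5, 0 and 13.9% in Type3a and 1.45 and 0% in Type3b replicates 1 and 3, against 0 and 0% in Type1 replicates 1 and 3 and 4.44, 7.13 and 63.5% in Type2. At this start Type3a replicate 1 and Type2 replicate 3 stood far above the others of their group. The means of 19.97% ± 36.5 in primary and 15.0% ± 27.3 in primordial libraries (SD, n = 5 each) did not differ beyond that spread. Only 3 starts of any gene had an adjusted p under 0.05 in this window, with differences far below 20 points. Spats2 had 1.62% ± 0.569 in primary and 0.374% ± 0.174 in primordial libraries (adjusted p = 0.0390, quasi-binomial model). Nsun2 and Srd5a1, which start next to each other and share sites, had 2.56% ± 1.43 and 2.57% ± 1.42 in primary and 0.597% ± 0.399 each in primordial libraries.

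Germline gene starts, several of which are methylated in somatic cells and not in oocytes, reached high levels in single libraries. Of 25 genes listed, 12 were placed and 3 had values over 300 bases; 1 was higher at an unadjusted p under 0.05 and 0 lower, beside 9.18 and 3.04% of all 3419 starts. Asz1, needed for piRNA production in germ cells, had 36.8, 0.231 and 6.33% in Type3a and 0.481, 80.8 and 0% in Type3b, against 0.133, 0 and 7.80% in Type1 and 0.311, 0.138 and 8.81% in Type2. Its primary values came from 2 libraries: Type3b replicate 2 and Type3a replicate 1 were above every primordial library, and the other 4 were within the primordial range. The value of Type3b replicate 2 rests on 365 reads summed over sites (95% Wilson interval 76.5 to 84.5%, which takes linked sites as independent). The means were 20.8% ± 32.7 in primary and 2.86% ± 4.23 in primordial libraries (p = 0.0239, adjusted 0.333, quasi-binomial model), and in Type7 it was at 15.6%. Without Type3a replicate 1 and Type1 replicate 3, 0 of the 3 germline starts were higher at that p, while the difference at Asz1 was 15.7 points, all 3 had the higher mean in primary libraries and their median difference was 13.2 points, against 9.17 with all libraries. Slc25a31, a mitochondrial carrier of the germline, had 9.87, 0 and 43.8% in Type3a and 0.201, 9.17 and 21.4% in Type3b, against 3.29 and 17.8% in Type1 replicates 1 and 3 and 0.821, 0 and 2.58% in Type2. The groups overlapped (p = 0.491, quasi-binomial model), and Type7 was at 0%. Fkbp6, a cochaperone of piRNA production, had 2.69% ± 1.75 in primary and 3.76% ± 7.92 in primordial libraries and was at 98.2% in Type7.

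Over 2 kb, 11 germline genes had values, of which 2 were higher in primary oocytes at an unadjusted p under 0.05 and 0 lower, and 9 had the higher mean in primary oocytes. Over all starts in this window the shares were 7.99% higher, 2.29% lower and 55.8% with the higher mean. Smc1b, a meiotic cohesin subunit, had 5.26% ± 7.81 in primary and 1.30% ± 1.57 in primordial libraries (p = 0.00378, adjusted 0.226, quasi-binomial model). Sycp1, a protein of the synaptonemal complex, had 14.1% ± 14.3 in primary and 5.74% ± 5.19 in primordial libraries, with an unadjusted p of 0.129 in the quasi-binomial model, and it was at 0% in Type7. Dazl, an RNA-binding protein of germ cells, had 3.73% ± 3.94 in primary and 0.650% ± 0.909 in primordial libraries (p = 0.0716, quasi-binomial model). The 2 members with the lower mean in primary oocytes were Hormad1, a protein of meiotic chromosome axes, with 4.76% ± 3.51 in primary and 11.3% ± 19.3 in primordial libraries (n = 4 each), and Tex101, a germ cell surface protein. Tex101 was highest at 23.4% in Type3a replicate 1 among primary libraries and at 49.8% in Type1 replicate 3 among primordial libraries. Over the 10 of the 11 that were below 20% in Type7, the library mean ran from 2.01 to 16.7% in primary and from 0.112 to 11.3% in primordial libraries. It was 16.7% in Type3a replicate 1 and 15.7% in Type3b replicate 2, and 11.3% in Type1 replicate 3, the highest primordial value. The libraries that were high here were mostly those with a high mean tile level, and the part of this in the results was not tested.

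No measured start of the DNA methylation machinery differed between the groups at an unadjusted p under 0.05 with all 12 libraries. Of 20 genes listed, 8 were placed and 3 had values over 300 bases, with 0 at an unadjusted p under 0.05. Dnmt1, the maintenance methyltransferase, had 1.88, 0 and 1.00% in Type3a and 4.13, 0.439 and 0% in Type3b, against 9.01, 0 and 1.78% in Type1 and 0.0770, 0.755 and 2.98% in Type2. This placed start, which need not be the main promoter of Dnmt1, reached 38.0% in Type5b, 42.6% in Type6 and 99.8% in Type7. Uhrf1, which guides DNMT1 to replicated DNA, had 0.986% ± 2.20 in primary and 0.605% ± 1.35 in primordial libraries (n = 5 each). Tet2, an enzyme that oxidises methylated cytosine, had 0.920% ± 1.06 in primary and 1.19% ± 2.91 in primordial libraries. Over 2 kb, 10 members had values, with 0 higher and 0 lower at that p and a median difference of 0.195 points; without Type3a replicate 1 and Type1 replicate 3, 1 of the 10 was higher at that p. Single libraries were higher: Dnmt3a, a de novo methyltransferase, reached 25% in Type3a replicate 2 and 8.89% in Type2 replicate 2, Kdm1b, a histone demethylase, 22.2% in Type3b replicate 3, and Dnmt3b, another de novo methyltransferase, 11.1% in Type1 replicate 1. The lowest read count of a measured library, summed over sites, was 24 at Dnmt3a, 18 at Kdm1b and 20 at Dnmt3b, so a level of 1 library there can rest on few reads.

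Oocyte and follicle genes gave few values. Of 28 genes listed, 5 were placed and 1 had a value over 300 bases, Kitl, which encodes the ligand that granulosa cells make for the receptor KIT of the oocyte. It had 0.812% ± 1.62 (n = 4) in primary and 2.62% ± 5.85 (n = 5) in primordial libraries. Over 2 kb, 6 had values, 1 of them higher at an unadjusted p under 0.05 and 0 lower, beside 7.99 and 2.29% of all 6459 starts. Without Type3a replicate 1 and Type1 replicate 3, 5 had values, with 0 higher and 0 lower at that p. The largest difference among the 5 was 10.4 points. Nlrp5, a maternal-effect gene of the subcortical complex of the egg, had 50.4, 2.87 and 0% in Type3a and 6.34, 43.6 and 34.4% in Type3b, against 7.14, 0 and 0% in Type1 and 4.80, 8.81 and 14.5% in Type2. Type3a replicate 1 and Type3b replicates 2 and 3 were above all primordial libraries (p = 0.0204, adjusted 0.378, quasi-binomial model), and in Type7 the level was 1.28%. Foxo3 and Foxl2, factors of follicle dormancy and granulosa cell identity, had 0.442% ± 0.531 and 0.665% ± 1.09 in primary and 0.762% ± 1.05 and 0.794% ± 0.738 in primordial libraries.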

How the data were processed

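Per the labels' protocols, DNA of lysed oocytes was cut with MspI, ligated to premethylated adaptors, bisulfite converted, amplified and size-selected. Per the submitters' processing notes, BSMAP 2.89 and mm9 were used; the sources used here do not give the caller or trimming. The deposited files hold, per CpG, a count of reads and a count of methylated reads, both also by strand, and the methylated fraction, which the authors rounded; levels were recomputed from the counts. No listed site has under 3 reads. Depth ran from 16652864 to 51294814 reads over sites in the 12 libraries. PCR copies count as reads, a read counts once at each site it covers, and a strain variant of C to T reads as unmethylated.

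Tiles of 100 bp hold at least 3 sites of at least 5 reads each. Tiles and gene starts measured in at least 4 libraries of each group were tested by a quasi-binomial model, its dispersion moderated over tiles (the squeezeVar method of limma) with 1 as the floor, an F test and Benjamini-Hochberg adjustment; a call needs an adjusted p under 0.05 and at least 20 points. Means per library went through exact permutation tests, two-sided and adjusted within a family. The model was also run on simulated reads, and the outcome is not given here. RefSeq promoters (GRCm38.p6) were placed on mm9 where at least 8 listed sites matched at a single place with no listed site off the pattern. The rule for named tiles and starts was the 10 called ones per direction with the largest difference, plus all measured members of the 4 lists; as nothing was called, other named items were chosen after their values were seen. The groups, lists and tests were chosen with earlier results of these data known. Alternatives were other read, site and tile settings, limma, edgeR, a replicate block, a fit on all 31 libraries and leaving out libraries. The fit on all libraries tested the pooled groups with the dispersion of a model with stage as factor. Whether replicate numbers pair libraries across stages is not stated in the labels, and the main model does not pair them. Software was limma 3.58.1 and edgeR 4.0.16 in R 4.3.3, and in Python 3.11.15 scipy 1.17.1, numpy 2.4.6, matplotlib 3.10.9 and pandas 2.3.3.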

Additional observations from a re-analysis of the deposited data

Results flagged for a closer look

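Values are given here where 1 library of a group stood apart from the rest of its group by Dixon's criterion. Chance meets it in about 1 in 20 groups of normally distributed values, and 19 of the 52 groups and measures examined met it. Where all other libraries are at 0%, any library above 0% meets it. That was so at Uhrf1 and Kitl in both groups and at Tet2 in the primordial group, so the rates cannot be compared. Type1 replicate 3 accounted for many of the 19, and most of its measures are taken from overlapping tiles.

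Among the 6 primordial libraries, Type1 replicate 3 had the highest mean tile level, at 19.4%, with the next library at 15.1%. It was also highest in tiles below 20% in Type7 (4.71%), between 20 and 80% (40.8%) and at 80% or more (35.0%), and in the difference between the last and the first of these (30.3 points). By CpG density it was highest at 0 to 9 sites (21.3%), 10 to 19 sites (23.2%) and 20 to 39 sites (20.8%). Its share of tiles below 10% was the lowest, at 55.3%. The comparisons without this library are given beside the results.

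At single gene starts, Type1 replicate 3 stood above the other primordial libraries at Slc25a31 (17.8%), Fkbp6 (19.8%) and Tet2 (7.12%). Type1 replicate 1 did so at Grb10 (6.39%) and Dnmt1 (9.01%), and Type2 replicate 1 at Uhrf1 (3.02%) and Kitl (13.1%). Among the primary libraries, Type3b replicate 1 stood above the others at Grb10 (6.06%), and Type3a replicate 2 at Uhrf1 (4.93%) and Kitl (3.25%).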

How the results depend on the processing

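The count of called tiles was 0 in the quasi-binomial model and stayed 0 under 12 alternatives: 10 reads per site, 5 sites per tile, 200-bp tiles, a cap of 10 reads, tiles measured in all 12 libraries or in at least 2 of each group, a threshold of 10 points, limma, edgeR, the 10 libraries left without Type3a replicate 1 and Type1 replicate 3, and Type3a or Type3b against Type1. Of 55120 tiles, it was 73 with all 31 libraries in the fit (70 higher, 3 lower) and 23 with the replicate block (23 higher, 0 lower). It was 1 for Type3a against Type2 and 60 for Type3b against Type2 (59 higher, 1 lower, 0.095 and 0.00161% of 62117 tiles). Leaving out 1 library gave 0 to 2, with 2 only without Type3a replicate 4. The cause was not tested. The labels do not say whether libraries with the same replicate number share an animal or a batch. Of 15 pairs from different stages with the same number, 2 had deviations from their stage means correlated above 0.1, against 7 of 39 pairs with different numbers. The mean correlation was 0.0105 and -0.00312. Deviations from means of 3 libraries cannot decide whether the numbers pair libraries. Permuting within replicate numbers, the block gave an exact p of 0.102 for the mean level. Type3a replicate 4 is alone with its number, so it stays in its group in these permutations and adds nothing to the tile contrast with the block. The tiles at an unadjusted p under 0.05 numbered 4254 to 8752 higher and 637 to 1165 lower when 1 library was left out.

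The differences in mean level, Type7 classes, CpG density, X measure and tile shares kept their direction under each alternative run on them; the Type5b split, the site contexts, the gene starts per library and Type3b against Type3a were not rerun. The mean difference was 3.09 points without the pair of libraries, 3.95 for Type3b alone (both exact p 0.0476), and 2.19 to 4.27 when 1 library was left out. Leaving out 1 library gave 1.12 to 2.05, 3.34 to 7.00 and 4.00 to 7.31 points in the Type7 classes from low to high, and 2.88 to 5.26 for the contrast of the last and first. By CpG density from poor to dense it gave 4.24 to 7.62, 2.92 to 5.65, 1.87 to 3.94, 1.19 to 2.49 and 0.411 to 1.06 points, and 3.83 to 6.72 for the contrast. The X measure ran from 1.07 to 1.75 points and was 1.41 without the pair and 0.865 with 200-bp tiles; it has no value at 10 reads per site. The share below 10% ran from -6.71 to -3.66 points and that at 80% or more from 0.667 to 1.61. With at least 5 sites per tile, the class below 20% in Type7 differed by 0.784 points and the share below 10% by -2.69 points. No list member was called in any window. Type3b replicates 2 and 3 were the shallowest libraries, and 0 tiles were called with either left out.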
